A study of Dendrobium nobile with 12 samples.

Results

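Only 6 of the 31672 gene models of the orchid Dendrobium nobile met a rule of transcription in bud and stem but barely elsewhere. The rule asked for an FPKM (fragments scaled by model length and library total) of at least 2 in both bud and both stem libraries, and of under 1 in all 8 libraries of root, leaf, petal and labellum. Those FPKM values chose the 6 models, so the gap between bud and stem on one side and the other tissues on the other is described here and not tested. The models are evm.model.Chr09.1637-gene, evm.model.Chr17.1186-gene, evm.model.Chr05.1077-gene, evm.model.Chr11.1333-gene, evm.model.Chr12.1169-gene and evm.model.Chr19.411-gene. The deposited tables pair none of them with a gene name, so no function is given, and the tissue labels were not checked against marker genes.

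RNA was sequenced from 6 tissues of a single genotype, the same label in every library, with 2 libraries each. Bud, petal and labellum (the lip of the orchid flower) were labelled as coming from 2-year seedlings, and stem, leaf and root from 1-year seedlings; all plants grew in a greenhouse without any treatment beyond the choice of tissue. The labels do not give the kind of bud, and they name no separate plant behind each library, so p-values measure only the spread between these libraries. Bud and stem therefore differ in seedling age as well as in organ, and the effects of age and organ cannot be told apart. All 12 libraries are labelled D. nobile, the name used here, whereas the design text of the series says D. officinale. Total counts ran from 27175842 to 32040196 in the libraries outside root, and were 14165136 and 5289212 in root.

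As background, Dendrobium stems are fleshy canes that carry the leaves, store water and carbohydrate, and bear buds along their nodes. The medicinal alkaloid dendrobine, a picrotoxane-type sesquiterpenoid, is best known from the stems of D. nobile. Buds and young stem segments both hold dividing and expanding cells as well as vascular tissue. In libraries of whole organs, a low level in a tissue can come from few cells that transcribe a gene or from little RNA in each cell, and the FPKM does not tell these apart.

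The 6 models lay on 6 different chromosomes (5, 9, 11, 12, 17 and 19), and no 2 of them had neighbouring numbers. Their coding lengths ran from 684 to 1899 bp with a median of 1071 bp, beside a median of 1107 bp over the 12104 models that passed the floor of 2 FPKM in the same 4 libraries. Together they took 139.5 and 72.4 CPM (counts scaled to a common library total) in the bud libraries and 38.7 and 40.5 in the stem libraries, against 1.69 to 2.47 in the 8 other libraries. One model carried most of this in bud: evm.model.Chr09.1637-gene held 73.9% and 71.8% of the counts of the 6 models there.

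In bud the most abundant of the set was evm.model.Chr09.1637-gene (chromosome 9, coding length 1044 bp). It stood at 98.7 and 49.9 FPKM in the bud libraries and at 11.01 and 10.4 FPKM in the stem libraries. In the 8 other libraries it ranged from 0 to 0.473 FPKM with a median of 0.217. Its lowest bud or stem value was thus 21.99 times its highest value elsewhere, the widest gap in the set. Set beside the models that reached the floor in the 2 libraries of the tissue concerned, its mean exceeded 77.8% of models in bud and 27.8% in stem. For the other members these shares were 1.00% to 34.6% in bud and 1.12% to 43.4% in stem. The longest member, evm.model.Chr19.411-gene, exceeded only 1.00% and 1.25%.

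The cleanest off state belonged to evm.model.Chr17.1186-gene (chromosome 17, 684 bp), whose stem mean was 3.24 times its bud mean. It reached 4.76 and 6.19 FPKM in bud and 16.8 and 18.7 FPKM in stem, the highest stem level of the set. Elsewhere it had 1 count in all, in root replicate 2, and 7 of the 8 libraries were at 0. That count gave an FPKM of 0.276, since root replicate 2 was the shallowest library. Over the 8 libraries pooled, the level was 0.00727 FPKM with a 95% Poisson interval of 0.000184 to 0.0405, against 895 counts in the bud and stem libraries. Such intervals cover counting error only and leave out the spread between libraries. They also treat counts as independent molecules, which PCR copies are not.

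Its neighbour by number, evm.model.Chr17.1187-gene (507 bp), had no count in any of the 8 other libraries. This model missed the rule in bud, where it stood at 0.939 and 1.75 FPKM (13 and 27 counts), while in stem it stood at 14.6 and 15.8 FPKM (213 and 218 counts). A count of 0 over the 8 libraries allows up to 0.0294 FPKM (3 counts pooled). The 2 models thus shared the order stem above bud and near absence elsewhere, with the neighbour lower in bud. The neighbour was singled out after its values were seen, and the handling of reads that match 2 similar models is not given in the sources used here, so a sharing of reads between them was not tested. Whether they are separate genes or parts of one gene was not tested either. Of the 35 models within 3 numbers of a member, 22 reached an FPKM of 1 in at least 1 of the 8 other libraries, 15 passed the floor in all 4 bud and stem libraries and 5 had no counts at all.

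In bud, evm.model.Chr05.1077-gene (chromosome 5, 747 bp) differed most between libraries. It stood at 21.6 and 3.96 FPKM in bud and at 2.71 and 2.96 FPKM in stem, with values elsewhere from 0 to 0.603 FPKM and a median of 0.181. Bud replicate 1 was far above the other 3 libraries, and bud replicate 2 lay close to stem. Outside bud and stem it was highest in labellum, at 0.603 and 0.532 FPKM.

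Levels of evm.model.Chr11.1333-gene (chromosome 11, 1623 bp) were steady but separated from the other tissues by the narrowest gap. Bud had 4.24 and 4.09 FPKM and stem 2.49 and 2.45 FPKM, while the 8 other libraries ranged from 0.157 to 0.957 FPKM with a median of 0.764. It was detected in all 8, with 207 counts in total, and root came closest at 0.957 and 0.932 FPKM. The lowest stem value was 2.56 times the highest root value, so this model was lower outside bud and stem rather than silent there.

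The remaining 2 models came nearest to the floor of the rule. Close behind them were the stem values of evm.model.Chr11.1333-gene (lowest 2.45 FPKM) and evm.model.Chr05.1077-gene (lowest 2.71 FPKM). For evm.model.Chr12.1169-gene (chromosome 12, 1098 bp) the values were 3.87 and 2.30 FPKM in bud and 5.08 and 4.79 FPKM in stem, against 0 to 0.552 FPKM elsewhere with a median of 0.119. The longest member, evm.model.Chr19.411-gene (chromosome 19, 1899 bp), stood at 3.10 and 2.13 FPKM in bud and 2.15 and 2.87 FPKM in stem, against 0 to 0.641 FPKM elsewhere with a median of 0.133. Its bud and stem values interleaved, and with FPKM rescaled by TMM its lowest value was 1.84, under the floor.

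**Figure D1:**
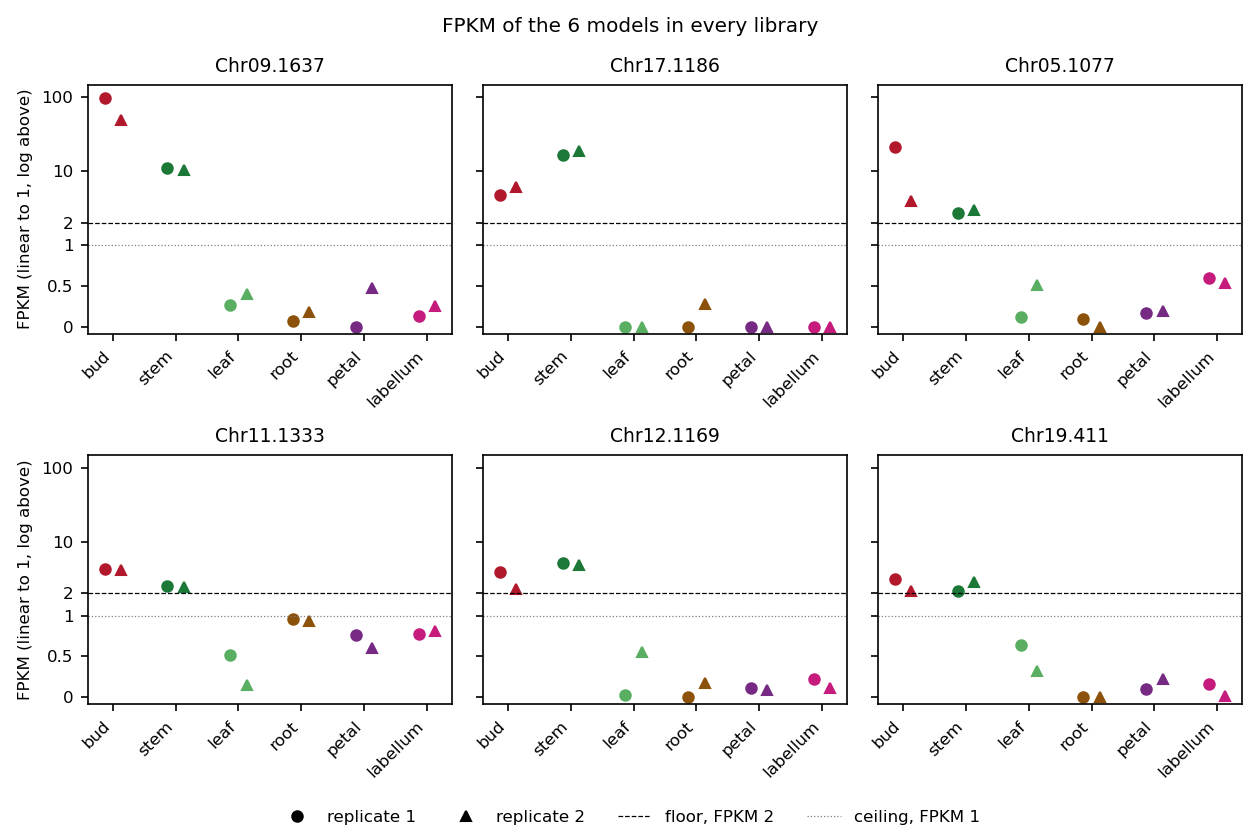
FPKM of each of the 6 models (panels, named by chromosome and number) in each of the 12 libraries, by tissue; circles are replicate 1 and triangles replicate 2, and the vertical axis is linear up to 1 and logarithmic above. All bud and stem points lie above the dashed floor of 2 and all others under the dotted ceiling of 1, as the rule requires, with the widest gap for Chr09.1637 (21.99 times) and the narrowest for Chr11.1333 (2.56 times).

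Residual transcription in the tissues set aside was unevenly placed. The 6 models had 432 counts in the 8 libraries, against 8228 in the 4 bud and stem libraries, and 12 of the 48 values were 0. Leaf had the highest mean of the 4 tissues for evm.model.Chr09.1637-gene (0.333 FPKM), evm.model.Chr12.1169-gene (0.290) and evm.model.Chr19.411-gene (0.480), root for evm.model.Chr11.1333-gene (0.944) and evm.model.Chr17.1186-gene (0.138), and labellum for evm.model.Chr05.1077-gene (0.568). Petal never had the highest mean, although the highest single value of evm.model.Chr09.1637-gene was in petal replicate 2 (0.473 FPKM). The root mean of evm.model.Chr17.1186-gene rests on 1 count. The leaf mean of evm.model.Chr12.1169-gene rests mostly on leaf replicate 2 (0.552 FPKM, against 0.0284 in replicate 1). For evm.model.Chr09.1637-gene the petal mean (0.236 FPKM) was not far under the leaf mean. In root replicate 2 the ceiling of 1 FPKM corresponded to 3.62 counts for the shortest model and 10.04 for the longest, so an off state in root rests on few reads, and the 0 of evm.model.Chr05.1077-gene there allows up to 0.759 FPKM (3 counts).

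Bud and stem were then compared within the set, a difference that the rule limits only through its floor in both tissues. There were 2 models called higher in bud and 0 called lower, at an adjusted p under 0.05 and a change of at least 2-fold. Over all 19123 models tested, 45.2% were called, 24% higher and 21.2% lower in bud. Among the 12104 models at the floor in all 4 libraries 43.3% were called, 25.2% higher and 18.1% lower, so 2 of 6 higher and 0 of 6 lower is not far from the background. The log2 fold change (bud minus stem) of evm.model.Chr09.1637-gene was 3.08 ± 0.67 (SE), with an adjusted p of 0.00331 (edgeR quasi-likelihood test, Benjamini-Hochberg adjustment over all tested models). It was called in all 21 alternative fits, with adjusted p between 6.22e-05 and 0.0369.

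The size of the change in evm.model.Chr05.1077-gene rested on bud replicate 1. Its log2 fold change was 2.49 ± 0.85 (SE), with an adjusted p of 0.0307 by the same edgeR test. Without bud replicate 1 the value was 0.66 with an adjusted p of 0.516 (edgeR), the lowest value over the alternatives. Without stem replicates 1 and 2 in turn the values were 2.43 ± 1.21 and 2.55 ± 1.22 (SE), with adjusted p of 0.144 and 0.129 (edgeR), so the fold stayed about as large while its error grew. In these fits a tissue is left with 1 library, which is assumed to vary like the libraries of the other tissues. The model was called in 14 of the 21 alternatives. These include every fit that left out a root, leaf, petal or labellum library, where all bud and stem data stayed in place. It was not called with limma on log2(FPKM + 0.1), limma with a variance weight per tissue, the bud and stem libraries alone or a replicate block.

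The other 4 models did not pass. For evm.model.Chr17.1186-gene the log2 fold change was -1.44 ± 0.66 (SE) with an adjusted p of 0.106 (edgeR), although both bud values lay under both stem values. In the 8 libraries capped by the rule, which also enter this error, the model had 1 count, in root replicate 2. Without root replicates 1 and 2 in turn the values were -1.44 ± 0.46 and -1.45 ± 0.47 (SE). This model was called lower in bud in 5 of 21 alternatives, with an adjusted p of 0.0300 in a fit of the bud and stem libraries alone and of 0.0452 and 0.0466 without root replicates 1 and 2 (edgeR), over a range from 0.000128 to 0.319. Log2 fold changes were 1.02 ± 0.54 for evm.model.Chr11.1333-gene, 0.34 ± 0.77 for evm.model.Chr19.411-gene and -0.40 ± 0.93 for evm.model.Chr12.1169-gene (SE), with adjusted p of 0.136, 0.735 and 0.741 (edgeR). A p that misses the threshold does not show equal levels, and the last 2 values are smaller than their standard errors.

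By FPKM alone, bud lay above stem in every library for 3 models (evm.model.Chr09.1637-gene, evm.model.Chr05.1077-gene and evm.model.Chr11.1333-gene) and under it for 2 (evm.model.Chr17.1186-gene and evm.model.Chr12.1169-gene), beside 35.8% and 43.5% of models at the floor in all 4 libraries. The median fitted log2 fold change of the 6 models was 0.68, against 0.03 over all tested models and 0.16 over the models at the floor. Without bud replicate 1 the median of the 6 was 0.30. The balance over all models moves with the scaling: edgeR on total counts alone gave a median of -0.19 over all tested models and called 3813 higher and 4866 lower in bud, against 4592 higher and 4045 lower with TMM. Limma on log2(FPKM + 1), which differs in test and offset as well as in scaling, called 3516 higher and 4809 lower. On total counts the 2 called models were still called higher in bud, at log2 fold changes of 2.79 for evm.model.Chr09.1637-gene and 2.17 for evm.model.Chr05.1077-gene.

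**Figure D2:**
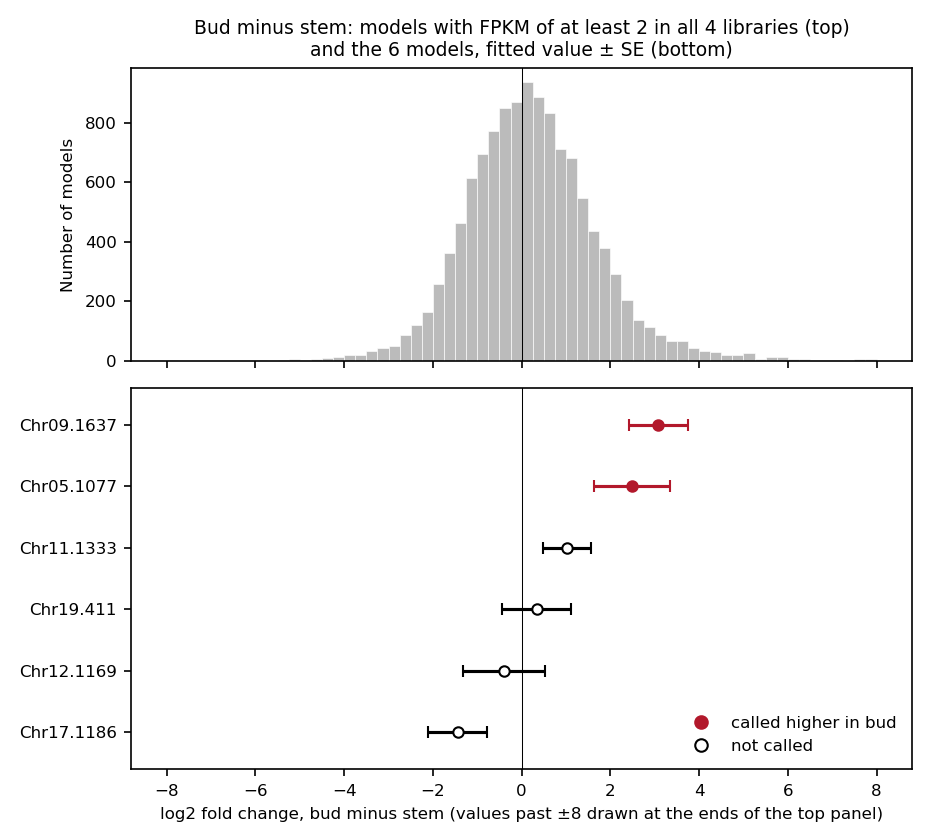
Log2 fold change of bud minus stem: the top panel counts the 12104 models that passed the floor of 2 FPKM in all 4 libraries, in classes of equal width, and the bottom panel gives the fitted value of each of the 6 models with its standard error. Chr09.1637 and Chr05.1077 (filled) are the 2 called higher in bud; the other 4 (open) run from -1.44 for Chr17.1186 to 1.02 for Chr11.1333, beside an interquartile range of -0.74 to 1.08 for the models in the top panel.

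Agreement between libraries was close in stem and loose in bud, for these models as for others. The 2 bud libraries differed by a median of 0.65 on the log2 scale of FPKM over the 6 models, and the 2 stem libraries by 0.11. Over the 12104 models at the floor the same medians were 0.50 in bud and 0.08 in stem, the same imbalance between the tissues. In bud, evm.model.Chr05.1077-gene differed 5.46-fold between its libraries, evm.model.Chr09.1637-gene 1.98-fold, evm.model.Chr12.1169-gene 1.68-fold, evm.model.Chr19.411-gene 1.46-fold, evm.model.Chr17.1186-gene 1.30-fold and evm.model.Chr11.1333-gene 1.04-fold. One of 6 passed 2-fold in bud, beside 19.9% of models at the floor, and none did in stem, beside 0.231%.

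In stem the largest difference between libraries was 1.34-fold, in evm.model.Chr19.411-gene. Bud replicate 1 was the higher library for 5 of the 6 models, whereas it was the higher one for 39.6% of models at the floor. For each model the fit shares a single estimate of spread among the tissues. Taken in common over the tested models, the biological coefficient of variation was 0.314 for the 6 tissues. Between the 2 bud libraries it was 0.572 and between the 2 stem libraries 0.0757. With a variance weight per tissue (limma-voom), evm.model.Chr09.1637-gene was still called (adjusted p 6.22e-05), and evm.model.Chr05.1077-gene was not (adjusted p 0.0508).

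**Figure D3:**
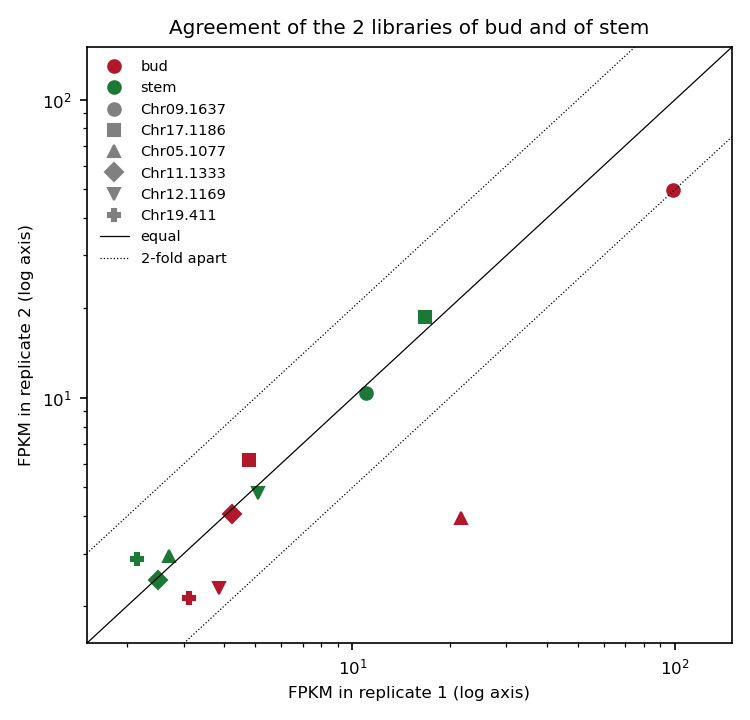
FPKM in replicate 2 against replicate 1 on logarithmic axes for the 6 models, with bud in red and stem in green and a marker per model; the solid line is equality and the dotted lines a 2-fold difference. The stem points lie near equality (at most 1.34-fold apart), while Chr05.1077 in bud lies outside the 2-fold lines at 5.46-fold.

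Replicates also showed how far the choice of models depends on single libraries. Applied to the replicate 1 libraries alone, the rule chose 21 models. The 6 of these that also met it in the replicate 2 libraries are the members themselves, by definition of the full rule. Of those 21, 17 were at the floor again in stem, 12 in bud, and 15 stayed under the ceiling in the 4 other tissues. Chosen on replicate 2, 17 models met the rule, of which 15 were at the floor in stem replicate 1, 10 in bud replicate 1, and 11 under the ceiling in the replicate 1 libraries of the 4 other tissues. A further 15 models missed the full rule in exactly 1 library, and in 8 of them that library was a bud library.

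Values on both sides of the thresholds lay close together. Just inside the floor were evm.model.Chr19.411-gene (2.13 FPKM in bud replicate 2) and evm.model.Chr12.1169-gene (2.30 in bud replicate 2), and just outside it evm.model.Chr16.1655-gene (1.998 in stem replicate 1) and evm.model.Chr12.924-gene (1.97 in bud replicate 2). Just inside the ceiling were evm.model.Chr11.1333-gene (0.957 in root replicate 1) and evm.model.Chr19.411-gene (0.641 in leaf replicate 1), and just outside it evm.model.Chr09.33-gene (1.06 in petal replicate 1) and evm.model.Chr17.1916-gene (1.06 in petal replicate 1). The first of these outside models, evm.model.Chr16.1655-gene, had 9.49 and 10.8 FPKM in bud and 1.998 and 2.33 FPKM in stem. It had no reads in root or leaf, but 0.774 and 0.295 FPKM in petal and 0.869 and 0.396 FPKM in labellum. The excluded evm.model.Chr09.33-gene had 5.74 and 6.12 FPKM in bud and 9.45 and 8.54 FPKM in stem, and its lowest value of 5.74 exceeded the lowest value of 5 of the 6 members.

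Among the 15 pairs of tissues, bud and stem had fewer models than 4 pairs and more than the 10 others. With the same thresholds, stem and leaf shared 69 models, stem and root 37, bud and root 8, leaf and root 7, and bud and stem 6. Those 10 pairs had between 0 and 4, among them bud with labellum (4) and bud with petal (2). Expression at the floor in both tissues was in contrast common, with 12104 models for bud and stem and 13406 for stem and leaf. Of those 12104 models, 407 were under 1 FPKM in both root libraries, 152 in both leaf libraries, 139 in both petal libraries and 112 in both labellum libraries. Few of these models were kept out by a single tissue. Leaf alone kept out the most, 22 of the 28 models that were under the ceiling in root, petal and labellum. Petal alone kept out 7, root 6 and labellum 4.

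**Figure D4:**
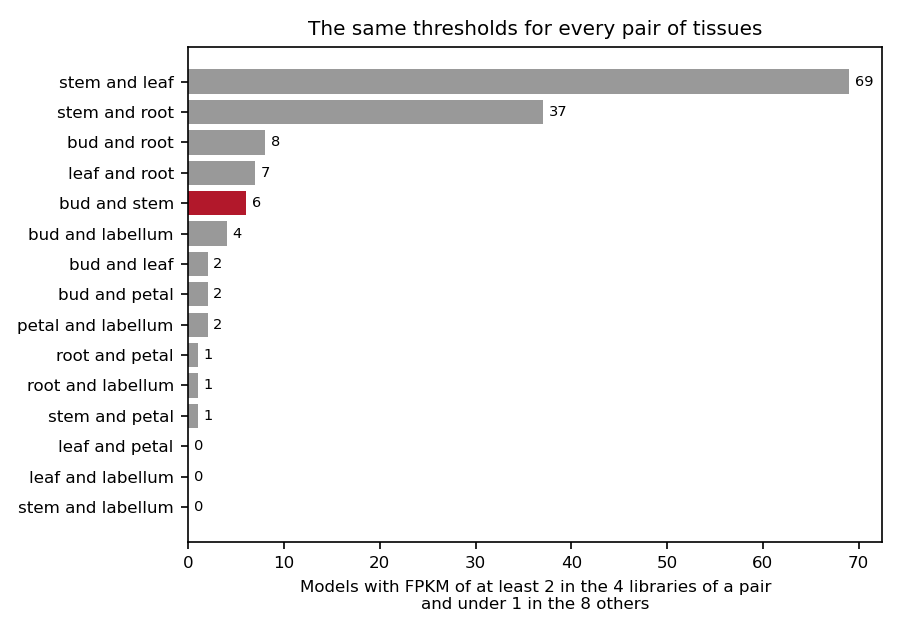
Number of models that passed the floor of 2 FPKM in the 4 libraries of a pair of tissues and under 1 in the 8 others, for all 15 pairs, with bud and stem in red. Stem with leaf has 69 and stem with root 37, and bud with stem has 6.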

How the data were processed

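The authors deposited whole-number read counts per gene model, not normalised, and FPKM values for the same 31672 models and 12 libraries. RNA came from a Qiagen column kit and libraries from a SMARTER mRNA-seq kit, per the labels' protocols; the sources used here give no aligner, counting rule, strand handling or orchid genome build, and GRCm38 and mm10, named in the submitters' processing notes, are mouse builds. Each deposited FPKM above 0 equalled count over length and library total within 0.1%, and the implied lengths were multiples of 3, so they are called coding lengths.

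Models were chosen on the deposited FPKM. Counts were tested with edgeR 4.0.16 (quasi-likelihood, filterByExpr, TMM) in R 4.3.3, all 12 libraries, one mean per tissue (6 residual degrees of freedom), contrast bud minus stem, Benjamini-Hochberg adjustment; calls needed an adjusted p under 0.05 and a 2-fold change. The fit was tested on simulated data with the same spread in every tissue, so that test does not cover the unequal spread of bud and stem. Alternatives used DESeq2 1.42.0 and limma 3.58.1, other scalings and filters, a replicate block and each library left out. Standard errors are the fold change over the square root of F. The members, the thresholds and the naming rule (all members, the models nearest each threshold, and flanking models) were chosen with earlier results of these data known.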

Additional observations from a re-analysis of the deposited data

How the results depend on the processing

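The number of models moved with the thresholds: 24 with a floor of 1, 1 with a floor of 5, 2 with a ceiling of 0.5, 34 with a ceiling of 2, 23 with thresholds on tissue means, and 21 and 17 on the libraries of replicate 1 and replicate 2 alone. Chosen after seeing the data, a ratio of at least 4 in place of the ceiling gave 12 models (4 of the 6 among them) and a floor of 4 with a ceiling of 2 gave 10 (2 of the 6). A floor of 1 with a ceiling of 0.5, also chosen then, gave 6 models, but only 2 of the 6 members were among them. The number was 5 with FPKM rescaled by TMM, and between 6 and 11 with 1 library left out, the highest without bud replicate 2. Models of the set called higher in bud numbered 1 in place of 2 with limma on log2(FPKM + 0.1), limma-voom, the bud and stem libraries alone and the replicate block, and between 1 and 2 with 1 library left out. Those called lower numbered 1 in place of 0 with limma on log2(FPKM + 1), limma on log2(FPKM + 0.1) and the bud and stem libraries alone, and between 0 and 1 with 1 library left out. The one change of sign was in evm.model.Chr19.411-gene, at -0.059 without bud replicate 1 and 0.64 without bud replicate 2. The cause of these moves was not tested. The labels do not say whether same-numbered libraries are paired. Deviations of same-numbered libraries correlated at 0.01 between bud and stem and from -0.30 to 0.12 over 15 pairs of tissues. These correlations cannot decide it, since each tissue gives a single contrast of its 2 libraries. With the replicate block, evm.model.Chr05.1077-gene had a log2 fold change of 2.37 and an adjusted p of 0.0578 (edgeR). The depth of root replicate 2 limits what can be said of low levels in root.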

Other observations

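Within the low range, the 2 libraries of a tissue could differ widely in counts. For evm.model.Chr12.1169-gene the leaf libraries held 1 and 19 counts, for evm.model.Chr11.1333-gene 27 and 8, and for evm.model.Chr05.1077-gene 3 and 12. The petal libraries held 0 and 14 counts of evm.model.Chr09.1637-gene. In stem the same 4 models differed by at most 1.09-fold in FPKM between libraries, while in bud they differed by 1.04-fold to 5.46-fold. The source of these residual counts was not tested.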
